A study of Mus musculus with 6 samples.

Results

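The genes described here move cholesterol out of myeloid cells or control that traffic, and they were taken by symbol from the count tables of a mouse bone marrow culture study. They are the efflux pump genes Abca1 and Abcg1, the nuclear receptor genes Nr1h3 and Pparg, the feedback gene Mylip, the secreted lipid-handling genes Pltp and Lpl, the lysosomal cholesterol export genes Npc1 and Npc2, and the esterification gene Soat1. All 10 were found among the 24062 gene rows, and all 10 passed the filter on low counts that left 13155 genes to be tested. Their counts ran from 314 to 87564 per library.

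Marrow from the femurs and tibias of C57BL/6J mice was grown with GM-CSF at 20 ng/ml, fed on days 3, 6 and 10, on a substrate of 50 kPa (high tension) or 2 kPa (low tension), with 3 samples at each stiffness. GM-CSF drives marrow precursors towards dendritic cells and macrophages, and both groups received it. The stiffer substrate stands for fibrotic or inflamed tissue and the softer one for healthy tissue, and the comparison asks how stiffness affects transcription. The titles name dendritic cells, but the labels name no sort, and they give neither the animals' age nor whether replicates came from separate cultures or animals. P-values here cover only sample-to-sample spread, whose source may be technical. In such bulk RNA, fewer cells of a type and less RNA per cell cannot be told apart.

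The libraries held 33.8 M to 36.1 M counts at 50 kPa and 35.9 M to 36.3 M at 2 kPa. High tension replicate 3 and low tension replicate 1 lay between the others on the first principal component, at 8.06 and -13.1. The other 50 kPa libraries lay at 54.5 and 59.5, and the other 2 kPa libraries at -57.4 and -51.5. High tension replicates 1 and 2 differed least: their counts gave chi-square over degrees of freedom of 6.71, where the remaining same-group pairs gave 126 to 233. Levels are normalised CPM, read counts scaled to the TMM-adjusted library size, with mean ± SD over n = 3 samples. Log2 fold changes are 50 kPa over 2 kPa with their standard error, and a gene was called at a Benjamini-Hochberg adjusted p under 0.05 in edgeR's quasi-likelihood test over all 13155 genes.

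Liver X receptors are nuclear receptors that bind oxysterols, pair with a retinoid X receptor and switch on genes that unload cholesterol from the cell. Macrophages depend on this system because they take up cell debris and lipoproteins but cannot break down the sterol ring of the cholesterol in them. PPAR gamma is a nuclear receptor of fatty acids and their derivatives, and in lung macrophages it is induced by GM-CSF and needed for lipid clearance. Cholesterol that enters by endocytosis leaves the lysosome through NPC2 and NPC1, and is then exported by ABCA1 and ABCG1 or stored as ester by SOAT1.

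Liver X receptors recognise a direct repeat of the half-site AGGTCA, written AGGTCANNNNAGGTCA. The 300 bases around the start of each gene (250 before it and 50 after) in RefSeq, build GRCm38.p6, were searched on both strands, with 3 mismatches allowed. The table held 10 such windows for 7 of the 10 genes. The Abca1 window and 1 of the Pparg windows held a match, each with 3 mismatches. The other Pparg windows held none. A match this loose was found in 21.9% of 32817 windows. The repeat with a single spacer that PPAR gamma pairs bind, AGGTCANAGGTCA, was searched the same way and had no match in the windows of the 7 genes, against 24.6% of all windows. The 250 bases before the start are shown for Abca1, the classical liver X receptor target, and for Pltp, the gene with the smallest p of the set. Capitals mark the Abca1 match, at bases -67 to -52 from the start, which reads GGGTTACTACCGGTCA on the opposite strand. The Pltp window held no match of either repeat. The Abca1 stretch is chr4:53159896-53160145 and the Pltp stretch is chr2:164857709-164857958, both read 5′ to 3′ along the minus strand on which these genes lie.
Abca1: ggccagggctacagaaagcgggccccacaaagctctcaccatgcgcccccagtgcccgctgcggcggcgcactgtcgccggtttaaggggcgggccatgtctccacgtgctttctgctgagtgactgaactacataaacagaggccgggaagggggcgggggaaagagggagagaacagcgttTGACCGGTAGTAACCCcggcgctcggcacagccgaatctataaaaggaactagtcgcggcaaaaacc
Pltp: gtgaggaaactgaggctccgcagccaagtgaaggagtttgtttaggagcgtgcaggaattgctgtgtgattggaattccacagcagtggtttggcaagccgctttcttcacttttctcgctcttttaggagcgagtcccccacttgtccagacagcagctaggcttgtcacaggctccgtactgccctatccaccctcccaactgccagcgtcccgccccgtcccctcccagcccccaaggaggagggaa

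No gene of the set was called by edgeR: 0 of 10 were higher, beside 1.47% of all genes tested, and 0 were lower, beside 1.98% (3.45% in either direction). All 10 had a positive fold change in the main fit, that of Nr1h3 being only 0.01, with a median log2 value of 0.31, against -0.028 over all genes tested. In some refits the sign turned for Abca1, Abcg1 and Nr1h3, the last to -0.084 when scaled by total counts. More of the genes turned negative when counted against macrophage markers, as given below. At an unadjusted p under 0.05 edgeR gave 4 of the 10 genes, beside 27.8% of all genes. These 4 were Pltp, Npc1, Npc2 and Lpl, which are also the 4 whose libraries at 50 kPa all lay above those at 2 kPa, beside 17.2% of all genes with groups apart in that direction and 34.1% in either. DESeq2 called 3 of the 10 higher (Pltp, Npc1 and Lpl) and 0 lower, beside 8.52% of all genes called higher and 9.51% called lower (18% in all). Among these 10 genes, the secreted and lysosomal ones were those with groups apart, a split that was not tested. In the pumps, the receptors, Mylip and Soat1 the groups overlapped.

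**Figure D1:**
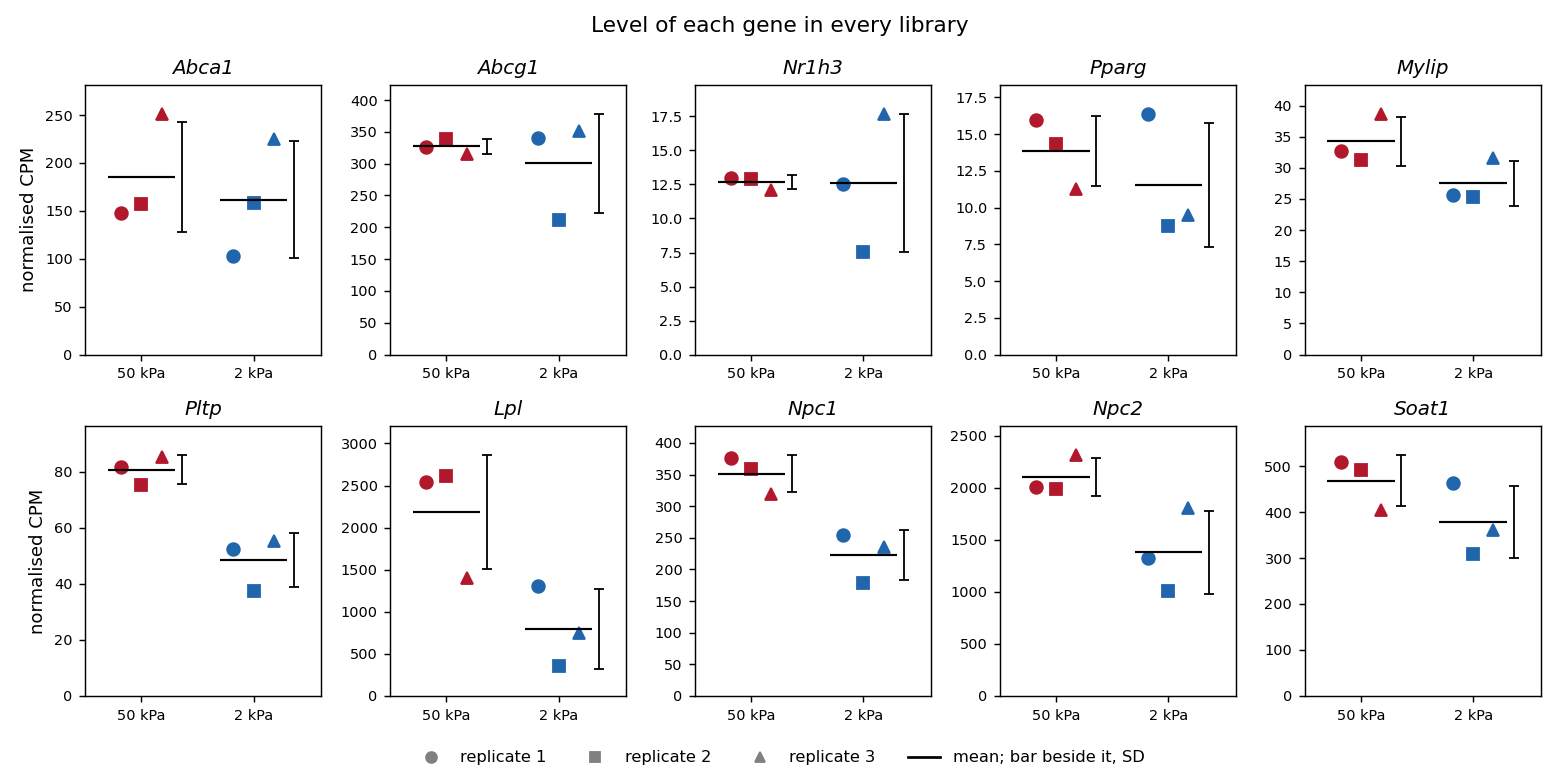
Normalised CPM of each of the 10 genes in every library, with 50 kPa left and 2 kPa right. Symbols mark the replicate number, the line is the mean of 3 libraries and the bar beside it is ± SD. In the panels of Pltp, Lpl, Npc1 and Npc2 all 50 kPa libraries lie above all 2 kPa libraries. In the other 6 panels the groups overlap.

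ABCA1 loads cholesterol and phospholipid onto lipid-poor apolipoprotein A-I. Abca1 (chromosome 4, 53030787 to 53159895, minus strand of GRCm38) stood at 148, 157 and 251 CPM in high tension replicates 1 to 3, against 103, 158 and 225 CPM in low tension replicates 1 to 3. The groups overlapped, and in each group replicate 3 was the highest library and replicate 1 the lowest. Abca1 averaged 185 ± 57.3 CPM at 50 kPa and 162 ± 61.1 CPM at 2 kPa. The log2 fold change was 0.20 ± 0.33 (edgeR adjusted p = 0.715), with a 95% interval of -0.61 to 1.00. The sign turned to -0.08 without high tension replicate 3 and to -0.04 without low tension replicate 1.

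ABCG1 passes cholesterol to mature high-density lipoprotein. Abcg1 (chromosome 17, 31057675 to 31117988, plus strand) stood at 327, 339 and 316 CPM at 50 kPa, against 340, 212 and 351 CPM at 2 kPa. The stiff libraries lay within a narrow band, and the soft ones lay at its upper edge or above it except low tension replicate 2. The log2 fold change was 0.12 ± 0.21 (edgeR adjusted p = 0.717), with a 95% interval of -0.38 to 0.62, and it was -0.08 without low tension replicate 2. The log2 ratio of Abcg1 over Abca1 within a library, which does not depend on scaling, was 0.86 ± 0.46 at 50 kPa and 0.93 ± 0.70 at 2 kPa (2-sided exact permutation p = 0.9 and adjusted p = 0.9 over the 4 ratios tested; 3 against 3 cannot go below 0.1). In linear terms Abcg1 counts were 1.26 to 2.21 times those of Abca1 at 50 kPa and 1.34 to 3.31 times at 2 kPa.

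Nr1h3 encodes liver X receptor alpha, the form that is rich in macrophages and liver and that is itself a liver X receptor target. The gene lies on chromosome 2, 91184061 to 91202834, minus strand. It stood at 13, 12.9 and 12.1 CPM in the stiff cultures, against 12.5, 7.53 and 17.7 CPM in the soft ones. The 2 kPa libraries lay below, beside and above the 50 kPa band, and the group means were 12.7 ± 0.497 and 12.6 ± 5.08 CPM at 50 and 2 kPa. Its log2 fold change was 0.01 ± 0.29 (edgeR adjusted p = 0.986, 95% interval -0.70 to 0.72), and it was -0.26 without low tension replicate 2. Nr1h2, the widely expressed liver X receptor beta gene, had 43.7 ± 2.71 CPM per kb of transcript at 50 kPa and 44.2 ± 7.25 at 2 kPa, against 6.48 ± 0.254 and 6.44 ± 2.60 CPM per kb for Nr1h3. In all 6 libraries the Nr1h3 count was 0.095 to 0.168 times the Nr1h2 count. The log2 ratio of the pair was -2.78 ± 0.142 at 50 kPa and -2.88 ± 0.443 at 2 kPa (2-sided exact permutation p = 0.9, adjusted p = 0.9).

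Pparg (chromosome 6, 115360951 to 115490399, plus strand) stood at 16.0, 14.3 and 11.3 CPM at 50 kPa, against 16.4, 8.78 and 9.49 CPM at 2 kPa. Low tension replicate 1 was the highest of all 6 libraries, and the other soft libraries were the lowest. The log2 fold change was 0.26 ± 0.28 (edgeR adjusted p = 0.552, 95% interval -0.40 to 0.93). Without both low tension replicate 1 and high tension replicate 3, a choice made after seeing the data, it was 0.73 and passed the threshold (edgeR adjusted p = 0.048). The log2 ratio of Pparg over Nr1h3 was 0.11 ± 0.201 at 50 kPa and -0.097 ± 0.695 at 2 kPa (2-sided exact permutation p = 0.9, adjusted p = 0.9). The difference of 0.21 was smaller than the spread at 2 kPa.

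Mylip encodes IDOL, a ubiquitin ligase that liver X receptors induce and that sends the LDL receptor for degradation. It lies on chromosome 13, 45389742 to 45412022, plus strand. Its level was 32.8, 31.3 and 38.7 CPM in the 50 kPa libraries, against 25.6, 25.3 and 31.6 CPM in the 2 kPa libraries. The groups overlapped only in that low tension replicate 3 stood just above high tension replicate 2. The log2 fold change was 0.32 ± 0.13 (edgeR unadjusted p = 0.053, adjusted p = 0.185).

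Pltp encodes phospholipid transfer protein, a secreted liver X receptor target that remodels high-density lipoprotein. The gene lies on chromosome 2, 164839518 to 164857711, minus strand. It stood at 81.8, 75.1 and 85.2 CPM in high tension replicates 1 to 3, against 52.5, 37.35 and 55.4 CPM in low tension replicates 1 to 3. The lowest stiff library lay well above the highest soft one. It averaged 80.7 ± 5.15 CPM at 50 kPa and 48.4 ± 9.69 CPM at 2 kPa, 1.67-fold, with a log2 fold change of 0.74 ± 0.16. Its edgeR adjusted p was 0.0617 and its DESeq2 adjusted p 0.00369. Of its representative transcript 22.2% overlaps exons of Ctsa on the other strand, the cathepsin A gene, which averaged 1584 ± 345 CPM at 50 kPa and 747 ± 235 CPM at 2 kPa. The library kit keeps strand, the sources used here do not give the setting used in counting, and what reads of Ctsa add to the Pltp count was not tested.

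Lpl encodes lipoprotein lipase, which releases fatty acids from triglyceride-rich lipoproteins and is regulated by both receptor families. On chromosome 8 it spans 68880491 to 68907448, plus strand. Levels were 2536, 2614 and 1405 CPM at 50 kPa, against 1300, 354.5 and 744 CPM at 2 kPa. High tension replicate 3 and low tension replicate 1 nearly met, and the remaining libraries lay far apart, so that Lpl spanned 7.37-fold over the 6 libraries, more than any other gene of the set. Lpl averaged 2185 ± 677 CPM at 50 kPa and 800 ± 475 CPM at 2 kPa. With a log2 fold change of 1.45 ± 0.50 it had the largest fold of the 10 (2.73-fold, 95% interval 1.18 to 6.32) but an edgeR adjusted p of 0.132, and a DESeq2 adjusted p of 0.0205. The fold change passed edgeR's threshold without low tension replicate 1 and high tension replicate 3, at 2.23 (adjusted p = 0.0456).

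NPC1 is the membrane protein, and NPC2 the soluble carrier, that hand cholesterol out of the late endosome and lysosome. Npc1 stood at 376, 359 and 319 CPM in the 50 kPa libraries, against 254, 178 and 236 CPM in the 2 kPa libraries. No library crossed into the other group. Npc1 averaged 351 ± 29.6 CPM at 50 kPa and 223 ± 39.5 CPM at 2 kPa, with a log2 fold change of 0.66 ± 0.16 (edgeR adjusted p = 0.0761, DESeq2 adjusted p = 0.00566). Exons on the opposite strand cover part of the Npc1 transcript too: 9.78% by Rmc1, counted under its older symbol 3110002H16Rik at 57.5 ± 1.48 CPM at 50 kPa and 51.5 ± 2.35 CPM at 2 kPa.

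Npc2 (chromosome 12, 84754562 to 84773152, minus strand) had 2010, 1987 and 2313 CPM at 50 kPa, against 1320, 1012 and 1806 CPM at 2 kPa. Replicate 3 was highest in both groups, and the groups stayed apart. Npc2 had a log2 fold change of 0.61 ± 0.24 (edgeR adjusted p = 0.169, DESeq2 adjusted p = 0.0779). The log2 ratio of Npc1 over Npc2 was -2.58 ± 0.242 at 50 kPa and -2.60 ± 0.295 at 2 kPa, a difference of 0.02 (2-sided exact permutation p = 0.9, adjusted p = 0.9). Both genes of the pair thus stood higher at 50 kPa by like amounts, and their ratio differed by less than its spread between libraries.

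SOAT1 esterifies cholesterol in the endoplasmic reticulum for storage in droplets. Soat1 (chromosome 1, 156424525 to 156474331, minus strand) stood at 509, 491 and 405 CPM in the stiff libraries, against 463, 309 and 361 CPM in the soft ones. High tension replicate 3 lay below low tension replicate 1, so the groups overlapped. Soat1 had a log2 fold change of 0.31 ± 0.19 (edgeR adjusted p = 0.315, 95% interval -0.14 to 0.76).

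**Figure D2:**
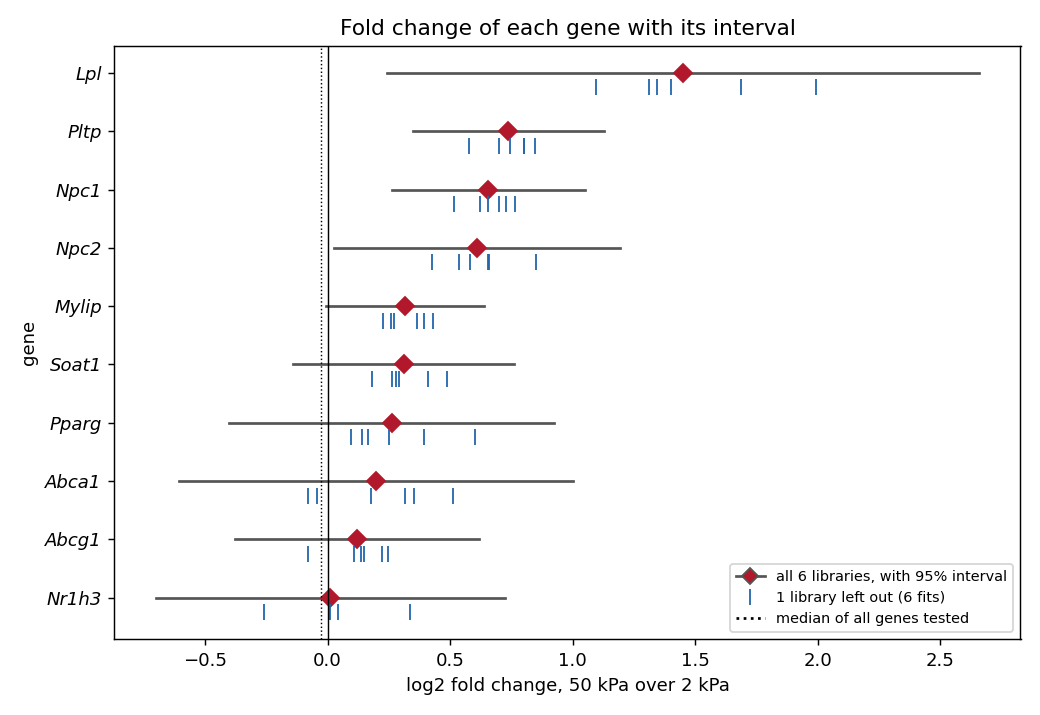
Log2 fold change of each gene, 50 kPa over 2 kPa, with its 95% interval (diamond and line), the 6 values with 1 library left out (ticks) and the median of all genes tested (dotted line, -0.028). The intervals of Lpl, Pltp, Npc1 and Npc2 lie above 0. Only Abca1, Abcg1 and Nr1h3 have ticks on both sides of 0.

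Per length of transcript the genes spanned a wide range of levels. Averaged over the 6 libraries, Npc2 stood highest at 528 CPM per kb and Lpl next at 363, and Lpl was below Npc2 in 4 of 6 libraries. Then came Npc1 at 54.9, Abcg1 at 53.9 and Soat1 at 50.5 CPM per kb. The order of Npc1 and Abcg1 differed by group. Npc1 stood at 72.01, 68.7 and 61.0 CPM per kb at 50 kPa, above Abcg1 at 56.05, 58.2 and 54.1, and at 48.7, 34.2 and 45.1 CPM per kb at 2 kPa, below Abcg1 at 58.3, 36.3 and 60.2. That reversal was not tested. Abcg1 was above Soat1 in 3 of 6 libraries, of both groups. Pltp followed at 29.0 CPM per kb, above Abca1 at 16.9 in 6 of 6 libraries, and Abca1 was above Mylip at 10.1 in 6 of 6. The receptors had the lowest means, Pparg at 7.19 and Nr1h3 at 6.46 CPM per kb. Mylip was above Pparg in 5 of 6 libraries, the exception being low tension replicate 1 (8.34 and 9.27 CPM per kb), and Pparg was above Nr1h3 in 5 of 6. In this order only Lpl and Npc1 had ranges over the 6 libraries that did not meet.

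The libraries also differed in a shared way. Low tension replicate 2 had the lowest level of all 6 libraries in 9 of the 10 genes, the exception being Abca1, and leaving it out gave the lowest log2 fold change of the 6 such fits for 8 of the 10. Without it Lpl stood at 1.09, Pltp at 0.58, Npc1 at 0.52 and Npc2 at 0.43. High tension replicate 3 was the lowest stiff library in 6 genes and the highest in the other 4, Abca1, Mylip, Pltp and Npc2.

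The order of libraries was set beside markers of the cells in the culture, since several members are macrophage genes. Of 14 macrophage markers tested edgeR called 0, and DESeq2 called 5 higher and 0 lower. Of the 14, 8 lay apart and higher at 50 kPa, beside 17.2% of all genes, and 12 had a positive fold change. Their summed level, over 16 markers measured, was 5796 to 6594 CPM at 50 kPa and 2729 to 4599 CPM at 2 kPa, lowest in low tension replicate 2. The resident macrophage markers Timd4 and Vsig4 were near 0. Counted against these markers, Pltp had 12.9, 11.4 and 14.7 counts per 1000 macrophage marker counts at 50 kPa and 11.4, 13.7 and 12.5 at 2 kPa. Npc1 and Npc2 overlapped in the same way, with differences in mean log2 value of -0.04 and -0.06. Lpl remained higher on average by 0.88, although its groups then overlapped, at 242 to 399 counts per 1000 at 50 kPa and 130 to 283 at 2 kPa. Abcg1, Nr1h3 and Soat1 lay apart and lower per macrophage marker count. Abcg1 had 51.4, 51.4 and 54.5 counts per 1000 at 50 kPa, against 73.9, 77.5 and 79.2 at 2 kPa. These were 3 of the 10 genes, beside 63.5% of all genes that lay apart and lower on that scale, and 0 of the 10 lay apart and higher, beside 1.38%.

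**Figure D3:**
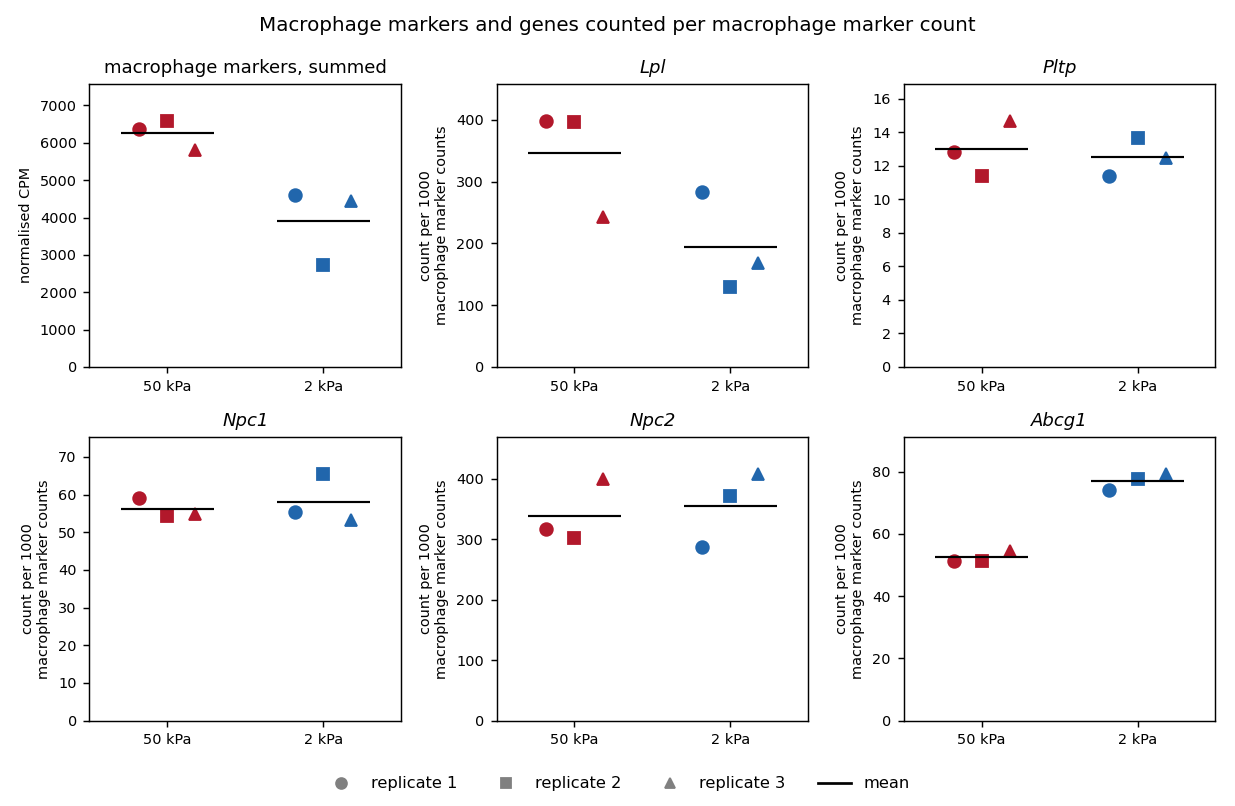
Summed normalised CPM of 16 macrophage markers (first panel), and counts of 5 genes per 1000 macrophage marker counts (other panels), in each library, with 50 kPa left and 2 kPa right. Symbols mark the replicate number and lines the mean of 3 libraries. The marker sum lies higher at 50 kPa in all libraries. On the marker scale Pltp, Npc1, Npc2 and Lpl overlap between groups and Abcg1 lies lower at 50 kPa.

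Markers of other cells were read in the same way. The median log2 fold change of each list was negative, except that of the osteoclast markers, at 0.30. Of 14 neutrophil markers tested edgeR called 7 lower and 0 higher, and DESeq2 called 12 lower. All 14 had a negative fold change, 12 lay apart and lower, beside 16.9% of all genes, and the median was -2.60. Their summed level was 917 to 1748 CPM at 50 kPa and 3935 to 7774 CPM at 2 kPa, highest in low tension replicate 2. Of 9 B cell markers edgeR called 8 lower and all 9 lay apart and lower. Their summed levels were 25.6 to 109 CPM at 50 kPa and 889 to 1436 CPM at 2 kPa. The 14 dendritic cell markers summed to 6986 to 11620 CPM at 50 kPa and 3858 to 7766 CPM at 2 kPa, with 0 called higher and 2 called lower. The largest part of that sum was H2-Aa, with means of 4625 CPM at 50 kPa and 1922 CPM at 2 kPa. Gene by gene, 3 lay apart and higher and 7 apart and lower, and the median log2 fold change was -0.55. DESeq2 called 3 of these markers higher and 7 lower. Of 10 monocyte markers edgeR called 3 lower, and the median log2 fold change was -1.07. Their summed level was instead higher at 50 kPa, at 4132 to 4454 CPM against 2987 to 3904 CPM at 2 kPa. Most of that sum was Chil3, with means of 2917 CPM at 50 kPa and 1806 CPM at 2 kPa. Chil3 is also on the list of alveolar macrophage-like genes. Of the monocyte markers 2 lay apart and higher and 4 apart and lower. Of 9 megakaryocyte markers edgeR called 4 lower and DESeq2 7. All 9 had a negative fold change, 7 lay apart and lower, and the median was -3.19. Of 9 basophil and mast cell markers 0 were called by edgeR, but 7 had an unadjusted p under 0.05, 7 lay apart and lower, and DESeq2 called 7 lower. Of 10 fibroblast markers edgeR called 1 higher, Lepr, the leptin receptor gene. In the same list 8 had a negative fold change, 3 lay apart and lower and the median was -1.59. Of 8 osteoclast markers edgeR called 1 higher and 1 lower, and 2 lay apart in each direction. The part of these cells in the levels of the 10 genes was not tested. Adipocytes also use Pparg and Lpl. The 10 adipocyte markers summed to 269 to 328 CPM at 50 kPa and 270 to 336 CPM at 2 kPa, 3 were tested and 0 were called. Most of that sum was Adipor2, at 221 to 275 CPM at 50 kPa and 209 to 284 CPM at 2 kPa, and Lipe, at 48.15 to 52.6 CPM at 50 kPa and 50.7 to 60.0 CPM at 2 kPa. Plin1 and Lep were at 0 in all libraries and Adipoq had at most 1 count.

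The rest of the pathway was read from 7 lists of related genes, 107 of whose 125 genes were tested. Of these 107, 2 were called higher and 0 lower, 1.87% beside 3.45% of all genes tested. The called genes were Mvd and Krt79. The median log2 fold change of the 107 was 0.19, against -0.028 over all genes. Of the 107, 32 lay apart and higher at 50 kPa, beside 17.2% of all genes, and 11 lay apart and lower, beside 16.9%. DESeq2 called 22 of the 107 higher and 6 lower, beside 8.52% and 9.51% of all genes.

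Among 9 liver X receptor partners and coregulators tested, 0 were called, 1 lay apart and higher and 1 apart and lower, with a median of -0.017. The coactivator gene Ncoa2 had the smallest p-value, at -0.33 ± 0.11 (edgeR adjusted p = 0.116, DESeq2 adjusted p = 0.0697). Rxra, the partner receptor, named here after its values were seen, stood at 169, 180 and 119 CPM at 50 kPa, against 140, 49.1 and 58.6 CPM at 2 kPa. Its libraries overlapped through low tension replicate 1 (edgeR adjusted p = 0.214, DESeq2 adjusted p = 0.118).

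Of 17 further liver X receptor targets 0 were called, with 6 apart and higher, 2 apart and lower, and a median of 0.029. Tlcd2, a membrane lipid regulator, was at 0.68 ± 0.15 and the growth factor gene Vegfa at 0.61 ± 0.14, with edgeR adjusted p-values of 0.0624 and 0.065. Their DESeq2 adjusted p-values were 0.00165 and 0.00082. Apoe, an acceptor of effluxed cholesterol and likewise named after its values were seen, had 479, 512 and 554 CPM at 50 kPa, against 192, 53.2 and 158 CPM at 2 kPa. Its groups lay far apart, with an edgeR adjusted p of 0.0675 and a DESeq2 adjusted p of 0.000361. Of the 17 targets, 9 had a positive and 8 a negative fold change, and DESeq2 called 5 higher and 2 lower. Over all genes, 17.2% lay apart and higher and 16.9% apart and lower.

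Of 13 PPARs, coactivators and PPAR gamma targets 0 were called, with 4 apart and higher, 1 apart and lower, and a median of 0.32. Cd36, the fatty acid and oxidised LDL receptor, stood at 199, 202 and 218 CPM at 50 kPa, against 139, 113 and 147 CPM at 2 kPa (0.64 ± 0.13, edgeR adjusted p = 0.0521). Ppard, the gene of the related receptor PPAR delta, stood at 60.9, 60.0 and 59.0 CPM in the stiff libraries, against 46.5, 45.8 and 48.8 CPM in the soft ones (0.35 ± 0.074, edgeR adjusted p = 0.0576). Both genes had groups that lay apart, and both missed the threshold in edgeR. Their DESeq2 adjusted p-values were 0.000662 for Cd36 and 0.00132 for Ppard.

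The remaining lists were those of cholesterol handling and of cells that depend on PPAR gamma. Of 25 uptake, lysosomal and storage genes 0 were called, 7 lay apart and higher and 1 apart and lower (median 0.35). The gene apart and lower was Soat2, the other cholesterol esterification gene, named after its values were seen, at 0.653, 0.657 and 1.24 CPM at 50 kPa against 1.68, 2.90 and 1.502 CPM at 2 kPa. Its log2 fold change was -1.25 ± 0.40, with an edgeR adjusted p of 0.114 and a DESeq2 adjusted p of 0.0341. The sterol sensor gene Osbp was at 0.46 ± 0.092 and the sterol carrier gene Stard4 at 0.60 ± 0.16, with edgeR adjusted p-values of 0.0527 and 0.0813. Their DESeq2 adjusted p-values were 0.000261 and 0.0112. Of 9 lipoprotein lipase partners 0 were called, 0 lay apart and higher and 2 apart and lower (median 0.057). Lipg, the endothelial lipase gene, had 6.10, 6.69 and 22.5 CPM at 50 kPa, against 39.1, 126 and 85.8 CPM at 2 kPa. It was opposite in direction to Lpl (-2.83 ± 0.67, edgeR adjusted p = 0.069, DESeq2 adjusted p = 0.000103). Lmf2, a lipase maturation gene, was at -0.17 ± 0.079 (edgeR adjusted p = 0.212, DESeq2 adjusted p = 0.196).

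Of 22 sterol synthesis and uptake genes under SREBP2, 1 was called higher and 0 lower, with 10 apart and higher, 3 apart and lower, and a median of 0.13. Mvd, the mevalonate decarboxylase gene, rose to 121, 123 and 106 CPM at 50 kPa, against 80.8, 66.9 and 75.75 CPM at 2 kPa (0.64 ± 0.11, edgeR adjusted p = 0.0436). Of 18 genes of the alveolar macrophage type, 1 was called higher and 0 lower, with 5 apart and higher, 1 apart and lower, and a median of 0.47. That gene was Krt79, a keratin gene of lung macrophages, with 15, 15 and 16 counts at 50 kPa and 2, 1 and 0 counts at 2 kPa (edgeR adjusted p = 0.0349). Both calls held without low tension replicate 1 (edgeR adjusted p = 0.0488 for Mvd and 0.0442 for Krt79). Neither held without any other single library, where Mvd had edgeR adjusted p-values of 0.213, 0.211 and 0.053 without high tension replicates 1, 2 and 3 and 0.106 and 0.0646 without low tension replicates 2 and 3. In the same fits the edgeR adjusted p of Krt79 was 0.183, 0.178, 0.0504, 0.102 and 0.0547.

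**Figure D4:**
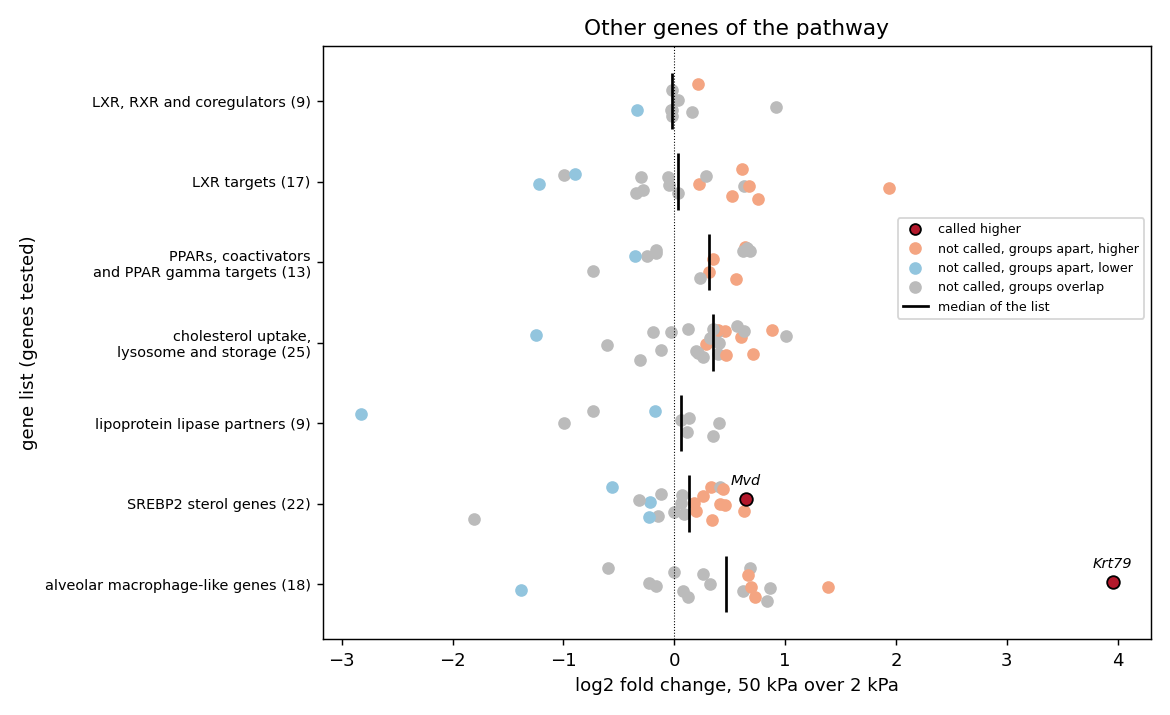
Log2 fold change, 50 kPa over 2 kPa, of every tested gene of 7 related lists, 1 point a gene, with the median of each list as a vertical line and the number tested in brackets. Red points with a rim are called genes. Paler red and blue points lie apart between groups without a call, and grey ones overlap. Only Mvd and Krt79 are called, and the list medians run from -0.017 to 0.47.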

How the data were processed

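The authors deposited 1 table for each library of raw read counts by gene symbol, from polyA RNA made into strand-keeping libraries, per the labels' protocols. Per the submitters' processing notes, TopHat2 2.0.11, HTSeq 0.6.1p2 and edgeR 3.16.5 and 3.8.6 were used, with builds mm10 and hg19 named. For the annotation and the strand setting, nothing is stated in the sources used here.

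The software was edgeR 4.0.16, DESeq2 1.42.0 and limma 3.58.1, under R 4.3.3. The steps were filterByExpr (minimum count 10, minimum total 15), TMM factors, glmQLFit and glmQLFTest over 13155 genes, with Benjamini-Hochberg adjustment. A standard error is the log2 fold change divided by the square root of F. Log ratios used a prior count of 2. A level of 1 CPM was 32.1 to 41.7 counts. Transcript lengths are those of the principal transcript in GENCODE vM21 (GRCm38). Opposite-strand overlaps came from the same annotation. The procedure was also run on simulated data drawn as independent replicates. That run does not cover samples as alike as high tension replicates 1 and 2, and no result here rests on it.

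The genes and lists were chosen with earlier results of these data known. Named genes were all 10 members and, of each list, the called genes (at most 4) or else the 2 with the smallest p. 1 gene that this rule names is not reported here. Alternatives were other scalings, filters and tools, a replicate block and leaving out libraries.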

Additional observations from a re-analysis of the deposited data

How the results depend on the processing

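Of 170 refits of the 10 genes' fold changes, 157 kept the sign and the side of the threshold. These leave out counting per macrophage marker count. The marker sum was itself 0.71 higher in mean log2 value at 50 kPa. On that scale differences were -0.48 for Abca1, -0.55 for Abcg1, -0.62 for Nr1h3, -0.40 for Pparg and -0.39 for Mylip and Soat1. Npc1 and Npc2 were at -0.04 and -0.06, Pltp at 0.05 and Lpl at 0.88. Among the 170 refits the sign of Abca1 turned (-0.08 without high tension replicate 3, -0.04 without low tension replicate 1, -0.32 without both). It also turned for Abcg1 (-0.081 without low tension replicate 2) and Nr1h3 (-0.26 without that library, -0.084 with total counts, -0.0066 at 5 CPM in 3 libraries). The cause was not tested. With 1 library left out, log2 fold changes ran from -0.08 to 0.51 for Abca1, -0.081 to 0.25 for Abcg1 and -0.26 to 0.34 for Nr1h3.

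Calls moved far more. Over all genes, higher and lower calls numbered 1121 and 1251 with DESeq2, 20 and 16 at 5 CPM in 3 libraries, 254 and 522 with the replicate block, and 77 higher with total counts, which moved the median of all genes to -0.16. They numbered 0 to 255 higher and 0 to 256 lower with 1 library left out, 0 and 0 with high tension replicates 1 and 2 summed, and 902 and 984 without low tension replicate 1 and high tension replicate 3. The last 2 choices were made after seeing the data. Of the 10 genes, 3 were called higher with DESeq2, 1 (Pltp, adjusted p = 0.0429) with the block, 2 (Pparg and Lpl) without those 2 libraries, and 0 with any single library left out. Pathway calls were 22 higher and 6 lower with DESeq2, 4 and 2 with the block, 12 and 6 without those 2 libraries, 1 higher with total counts, and 0 higher at 5 CPM or with the summed sample. They were 0 to 4 higher and 0 to 1 lower with 1 library left out. At an unadjusted p under 0.05 edgeR gave 2 to 5 of the 10 genes and 20 to 46 pathway genes with 1 library left out. Over all genes the same fits gave 2062 to 4184, with 13255 to 13418 genes tested. Differences in log2 ratio ran from -0.32 to 0.33 for Abcg1 over Abca1, -0.14 to 0.16 for Npc1 over Npc2, -0.15 to 0.25 for Nr1h3 over Nr1h2 and -0.19 to 0.45 for Pparg over Nr1h3 with 1 library left out. Deviations from the group means correlated between same-numbered libraries with r = 0.54, -0.11 and 0.49, which does not settle whether numbers mark pairs. The main fit did not take them as pairs, and the fit with the replicate block is given beside it.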
